A study of Mus musculus with 12 samples.

Results

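Antioxidant defence was described through 40 genes in the retinal pigment epithelium (RPE), a single pigmented layer that supports the photoreceptors. The 40 comprised 4 superoxide dismutase and catalase genes, 5 glutathione peroxidases, 7 peroxiredoxin and sulfiredoxin genes, 5 thioredoxin system genes, 6 genes of glutathione synthesis, reduction and breakdown, 6 glutathione transferases, 5 genes around the regulator NRF2 and 2 metallothioneins. The rule used names and known roles and no measured value, but the 40 were chosen with earlier results of these data known. All 40 were found by gene identifier among the 27179 rows of the deposited tables, and all 40 passed the filter on low counts, which left 14219 genes for testing. RNA was sequenced from RPE isolated enzymatically from wild-type male C57BL/6J mice. Each of the 12 libraries held 1 eye, and the 6 mice were 3 animals of 5 months and 3 of 22 months, untreated as far as the labels say. The labels put mice 1 and 2 in batch 1 and mouse 3 in batch 2, at both ages. The question was how RPE transcripts differ between young and old mice.

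Superoxide dismutases turn superoxide into hydrogen peroxide, and catalase, glutathione peroxidases and peroxiredoxins then remove the peroxide. The peroxidases draw their electrons from glutathione or thioredoxin, which are in turn reduced with NADPH. NRF2, encoded by Nfe2l2, is a transcription factor held back by KEAP1 and induces many of these genes when cells meet oxidants or electrophiles. The RPE is exposed to light, high oxygen and the lipids of shed photoreceptor tips, and is known for its high content of such enzymes.

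The mouse was the replicate, so counts of its 2 eyes were summed, and the ages were compared with edgeR's quasi-likelihood test with batch as a term. Levels are counts per 1000000 (CPM) after TMM scaling. Calls required a p below 0.05, adjusted by Benjamini-Hochberg over all genes tested, and an absolute log2 fold change above 0.25, where the fold is 22 over 5 months. With 3 mice per age, 3 residual degrees of freedom remained. Libraries held 9171131 to 13217909 counts each. RPE genes were abundant in all of them: the summed CPM of 39 RPE marker genes ran from 39531 to 69305 in the 5-month libraries and from 15125 to 60118 in the 22-month libraries. Rod photoreceptor transcripts were present throughout and differed between the ages, with a summed CPM of 44 rod genes from 3886 to 12511 at 5 months and from 4771 to 46449 at 22 months, and none of the 44 had 0 counts in any library. In such bulk samples, fewer cells of a type and less RNA per cell cannot be told apart.

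Promoter windows from 250 bases before to 50 bases after an annotated start were taken from RefSeq (GRCm38.p6) and were found for 33 of the 40 genes. Sod3, Prdx6, Msra, Gclc, Gsr, Gsta4 and Hmox1 had none in the table. Windows were searched on both strands for the core of the antioxidant response element, TGACNNNGC, which NRF2 is known to bind with a small MAF partner, for the related site TGANTCAGC, and for the core of the metal response element, TGCACNC or TGCGCNC, which the zinc-sensing factor MTF1 is known to bind. TGACTCAGC matches both of the first 2 motifs. The antioxidant core was in a window of 9 of 33 genes (27.3%), against 14.0% of 27025 genes with a window, and the related site in 4 of 33 (12.1%), against 1.37%. The metal core was in 9 of 33 (27.3%), against 28.2%. It occurred more than once in the windows of Mt1, Mt2, Gclm (3 matches) and Gstk1 (2 matches). A match is a description of the letters only.

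Windows of Gstp1 and Sod1 are shown because both genes fell with age, and that of Prdx1 because it holds a match to both NRF2-type motifs. Each starts at its 5′ end on the gene's own strand, with the matched letters in capitals: TGANTCAGC for Gstp1, TGACNNNGC for Sod1, and both for Prdx1. They lie at chr19:4037863-4038162 (minus strand), chr16:90220512-90220811 (plus strand) and chr4:116685349-116685648 (plus strand). The matches begin 74, 56 and 133 bases before the start, in that order, and those of Sod1 and Prdx1 are on the opposite strand, so that they read as reverse complements.
Gstp1: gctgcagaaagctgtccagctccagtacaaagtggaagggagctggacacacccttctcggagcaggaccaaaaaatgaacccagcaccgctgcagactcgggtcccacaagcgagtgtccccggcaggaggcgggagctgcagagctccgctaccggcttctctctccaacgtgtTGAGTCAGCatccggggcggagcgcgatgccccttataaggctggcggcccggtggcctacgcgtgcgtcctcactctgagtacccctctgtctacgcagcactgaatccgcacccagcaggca
Sod1: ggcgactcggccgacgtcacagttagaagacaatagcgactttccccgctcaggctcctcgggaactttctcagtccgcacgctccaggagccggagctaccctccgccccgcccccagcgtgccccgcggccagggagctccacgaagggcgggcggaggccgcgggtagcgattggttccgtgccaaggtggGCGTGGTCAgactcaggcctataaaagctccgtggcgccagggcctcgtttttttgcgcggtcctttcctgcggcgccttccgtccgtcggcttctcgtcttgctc
Prdx1: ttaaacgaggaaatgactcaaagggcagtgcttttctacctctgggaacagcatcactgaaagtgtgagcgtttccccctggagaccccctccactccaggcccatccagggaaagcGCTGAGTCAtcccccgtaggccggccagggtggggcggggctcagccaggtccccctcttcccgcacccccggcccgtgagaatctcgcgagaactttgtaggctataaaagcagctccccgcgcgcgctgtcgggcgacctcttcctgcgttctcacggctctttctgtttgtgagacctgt

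The windows of the neighbouring metallothionein genes are shown because both genes had the highest levels per length of all 40 together with Gpx4. They lie at chr8:94178839-94179138 and chr8:94172368-94172667, both on the plus strand, and capitals mark the metal response element core, present 3 times in the Mt1 window and 4 times in that of Mt2.
Mt1: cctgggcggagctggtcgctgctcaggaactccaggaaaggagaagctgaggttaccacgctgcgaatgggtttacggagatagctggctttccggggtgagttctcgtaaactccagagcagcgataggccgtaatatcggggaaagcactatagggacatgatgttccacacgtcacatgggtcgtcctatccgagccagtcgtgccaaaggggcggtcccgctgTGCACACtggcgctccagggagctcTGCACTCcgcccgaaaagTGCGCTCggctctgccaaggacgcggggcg
Mt2: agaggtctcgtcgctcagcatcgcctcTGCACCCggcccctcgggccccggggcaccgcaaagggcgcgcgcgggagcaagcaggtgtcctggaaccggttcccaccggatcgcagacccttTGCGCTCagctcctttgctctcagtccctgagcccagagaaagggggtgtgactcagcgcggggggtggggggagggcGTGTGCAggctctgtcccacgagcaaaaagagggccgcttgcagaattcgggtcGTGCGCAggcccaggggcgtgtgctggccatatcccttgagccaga
The Mt2 window also holds a TGACTCAGC on the gene's strand, left in lower case, 79 bases before the start. Other genes with the antioxidant core were Nfe2l2, Srxn1, Gclm, Mgst1, Ggt1 and Txnrd1, and Srxn1 also held the related site. For Ggt1, 3 of its 4 annotated starts had the core.

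Levels per kilobase of the principal transcript spanned from 830.1 CPM per kb for Mt1 to 1.20 CPM per kb for Slc7a11 at 5 months. Mt1 and Mt2 encode small proteins that bind zinc and copper, and with Gpx4, which reduces lipid hydroperoxides in membranes, they were the 3 members of highest level per length, Gpx4 at 556 and Mt2 at 488 CPM per kb. Gstp1 (259.6), Sod1 (259), Gsta4 (199.6) and Gpx3 (179 CPM per kb) followed. The mice of batch 2 lay above those of batch 1 for most genes, and the gaps between neighbours such as Gstp1 and Sod1, or Gpx4 and Mt2, were smaller than the spread between the 3 young mice.

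**Figure D1:**
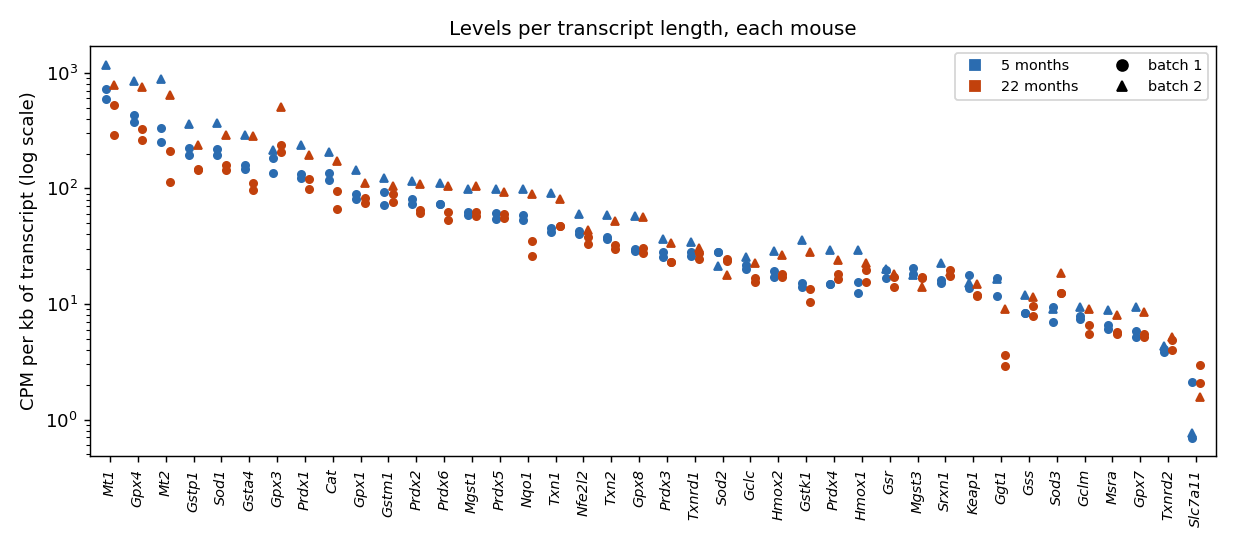
CPM per kilobase of transcript (log axis) for the 40 genes in each of the 6 mice, ordered by the 5-month mean; blue is 5 months, orange 22 months, circles batch 1 and triangles batch 2. Mt1, Gpx4 and Mt2 stand at the left end at 830.1, 556 and 488 CPM per kb, and most triangles lie above the circles of the same age.

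With age, most of the 40 genes lay on the lower side, by small amounts. The log2 fold change was below 0 for 30 of 40 (75%), against 51.7% of all genes tested, with a median of -0.22 against -0.01 for all genes. Of the 40, 3 were called lower (Ggt1, Gstp1 and Sod1) and 1 higher (Sod3). Over all genes tested, 2.26% were called lower and 5.41% higher. At an unadjusted p below 0.05, 18 were lower and 2 higher, where 14.6% and 16.5% of all genes were. DESeq2 on the same mouse sums called 9 lower and 2 higher, against 6.07% and 10.6% of all genes, adding Cat, Gpx4, Gclc, Nqo1, Mt1 and Mt2 to the lower group and Gpx3 to the higher one. The values of the 3 mice of one age lay wholly below those of the other for 2 genes (Ggt1 and Mgst3; 6.6% of all genes) and wholly above for 1 (Sod3; 6.19%).

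**Figure D2:**
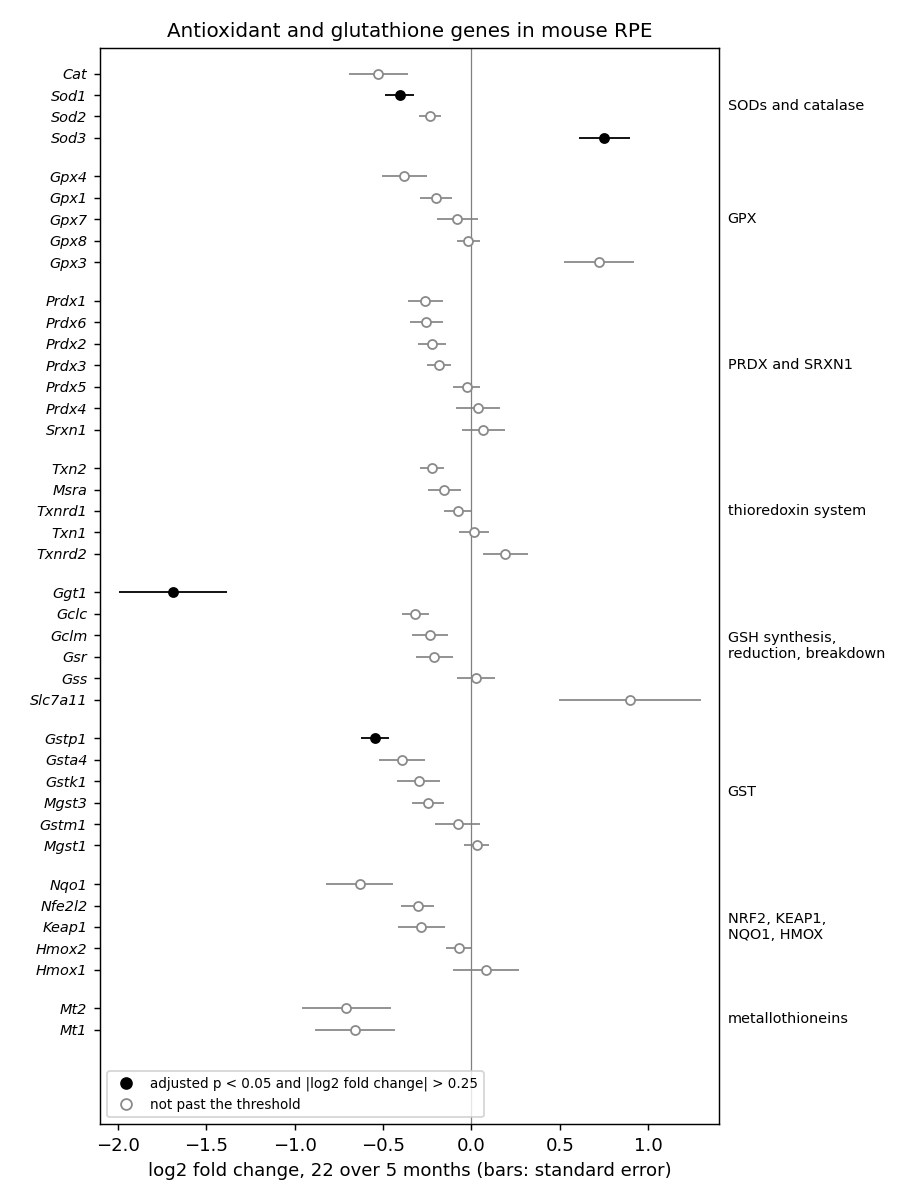
Log2 fold change of each of the 40 genes, 22 over 5 months (x axis), with its standard error, from edgeR's quasi-likelihood fit over 3 mice per age, grouped by family; filled points passed the threshold. Most points lie left of 0, Ggt1 farthest at -1.69, while Sod3 (0.75), Gpx3 (0.72) and Slc7a11 (0.90) lie to the right.

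Among the superoxide dismutases, Sod1 fell and Sod3 rose. Sod1 encodes the copper-zinc enzyme of the cytosol (chromosome 16, bases 90220762 to 90226333, plus strand) and stood at 125, 140.2 and 233 CPM in 5-month mice 1, 2 and 3, and at 92.8, 101 and 187 CPM in 22-month mice 1, 2 and 3. Within each batch the old mice were the lower ones, although batch 2 lay above batch 1 at both ages and the ages therefore overlapped. Sod1 fell by 24.5% (log2 fold change -0.41, standard error 0.08, adjusted p = 0.0444 from edgeR). Sod3 encodes the secreted, extracellular enzyme (chromosome 5, bases 52363804 to 52369738, plus strand) and measured 35.1, 25.9 and 33.6 CPM at 5 months and 46.2, 46.9 and 68.7 CPM at 22 months, so that every old mouse lay above every young one. Sod3 rose 1.68-fold (log2 fold change 0.75, standard error 0.14, adjusted p = 0.0419). The call held in left eyes alone (log2 fold change 1.21, adjusted p = 0.021) and not in right eyes alone (0.17, 0.664). Sod2, the manganese enzyme of mitochondria, was at 164, 166 and 125 CPM at 5 months and 144, 138 and 104 CPM at 22 months (log2 fold change -0.23, standard error 0.06, adjusted p = 0.0732), the lower values again being those of the old mice within each batch. It is one of 4 members, with Slc7a11, Mgst3 and Keap1, that were not higher in batch 2 at 5 months.

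Catalase, the peroxisomal enzyme that splits hydrogen peroxide, measured 311, 352 and 542 CPM at 5 months and 172, 249.8 and 447 CPM at 22 months. Both old mice of batch 1 lay below both young ones, and the old mouse of batch 2 below its young counterpart, but the adjusted p did not pass the threshold (log2 fold change -0.53, standard error 0.17, adjusted p = 0.103).

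Among the glutathione peroxidases the membrane lipid enzyme and the secreted enzyme lay on opposite sides, neither past the threshold. Gpx4 read 361, 416 and 821 CPM at 5 months and 249, 312 and 716 CPM at 22 months (log2 fold change -0.38, standard error 0.13, adjusted p = 0.113). Gpx3, the plasma glutathione peroxidase, read 294, 218 and 344 CPM at 5 months and 382, 328 and 801 CPM at 22 months (log2 fold change 0.72, standard error 0.20, adjusted p = 0.0806), with the highest value in 22-month mouse 3. Gpx1, the cytosolic selenoenzyme, had a log2 fold change of -0.20 (adjusted p = 0.194 from edgeR). Gpx7 and Gpx8, which act in the endoplasmic reticulum, had -0.08 and -0.02, with standard errors of 0.12 and 0.07.

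The peroxiredoxins, abundant peroxidases with a reactive cysteine, gave 0 calls of 7 in edgeR and in DESeq2, with 4 lower and 0 higher at an unadjusted p below 0.05. Over all genes, edgeR called 2.26% lower and 5.41% higher and DESeq2 6.07% and 10.6%, so 0 of 7 is near those shares. At the unadjusted p the shares were 14.6% lower and 16.5% higher in edgeR. Prdx1 of the cytosol was at 284, 307 and 545 CPM at 5 months and 224, 274 and 447 CPM at 22 months (log2 fold change -0.26, standard error 0.10, adjusted p = 0.143). Prdx2, also cytosolic, was at 110.1, 121 and 174 CPM at 5 months and 92.0, 97.8 and 163 CPM at 22 months (log2 fold change -0.22, standard error 0.08, adjusted p = 0.127). Mitochondrial Prdx3 was at 37.3, 41.7 and 54.2 CPM at 5 months and 34.0, 34.2 and 49.4 CPM at 22 months (log2 fold change -0.19, standard error 0.07, adjusted p = 0.132). For all 3 the old mice were the lower ones within each batch, and none passed the threshold. Prdx6, which uses glutathione and also acts on phospholipids, was at 174, 174 and 267 CPM at 5 months and 127, 148 and 250.1 CPM at 22 months (log2 fold change -0.26, standard error 0.09, adjusted p = 0.131). Prdx4 of the endoplasmic reticulum (0.04), Prdx5 (-0.03) and Srxn1, the sulfiredoxin that restores over-oxidised peroxiredoxins (0.07), had log2 fold changes within 1 standard error of 0, and all 3 had opposite signs in the 2 batches.

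In the thioredoxin system, mitochondrial Txn2 was at 74.3, 77.7 and 120.2 CPM at 5 months and 61.6, 65.8 and 108 CPM at 22 months (log2 fold change -0.22, standard error 0.07, adjusted p = 0.0935), lower in the old mice within each batch and short of the threshold. The cytosolic thioredoxin Txn1 had a log2 fold change of 0.01, and the reductases that recharge the 2 thioredoxins had -0.08 (Txnrd1) and 0.19 (Txnrd2), with adjusted p-values from 0.343 to 0.926 in edgeR. Msra, which repairs oxidised methionine, had -0.15 (adjusted p = 0.304).

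Ggt1 showed the largest difference of the 40. It encodes gamma-glutamyltransferase 1, the cell-surface enzyme that opens the breakdown of extracellular glutathione (chromosome 10, bases 75561076 to 75586193, plus strand), and was at 36.2, 25.5 and 35.8 CPM at 5 months and 6.24, 7.82 and 19.7 CPM at 22 months. All 3 old mice lay below all 3 young mice, and the old mouse of batch 2 was the least reduced. Ggt1 fell by 68.9% (log2 fold change -1.69, standard error 0.31, adjusted p = 0.0383). In single eyes the lowest value was 2.70 CPM, in the right eye of 22-month mouse 1, whose left eye had 9.73 CPM. The 6 young eyes ran from 20.3 to 41.6 CPM, so the highest old eye, at 21.2 CPM, only just entered their range.

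No gene of glutathione synthesis passed the threshold in edgeR. Gclc encodes the catalytic subunit of glutamate-cysteine ligase, the rate-limiting step, and read 69.1, 74.3 and 87.3 CPM at 5 months and 52.8, 56.9 and 76.9 CPM at 22 months (log2 fold change -0.32, standard error 0.08, adjusted p = 0.0634). Gclm, its modifier subunit, read 41.1, 43.6 and 53.0 CPM at 5 months and 30.7, 37.0 and 51.0 CPM at 22 months (log2 fold change -0.23, standard error 0.10, adjusted p = 0.18). Both were lower in the old mice within each batch, and neither passed the threshold. Gss, the synthetase of the second step, had a log2 fold change of 0.03, and Gsr, the reductase that regenerates glutathione with NADPH, of -0.21 (adjusted p = 0.231 from edgeR). Slc7a11, the exchanger that imports cystine for glutathione, had the lowest level per length and the largest standard error of the 40, at 19.6, 6.45 and 7.03 CPM at 5 months and 27.4, 19.0 and 14.5 CPM at 22 months (log2 fold change 0.90, standard error 0.40, adjusted p = 0.189). Young mouse 1 lay above old mice 2 and 3.

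Gstp1, a cytosolic glutathione transferase, gave the smallest p of the 40 (chromosome 19, bases 4035411 to 4037912, minus strand). It was at 158, 183 and 298 CPM at 5 months and 118, 119.8 and 197 CPM at 22 months, and fell by 31.5% (log2 fold change -0.55, standard error 0.08, adjusted p = 0.028). The difference in log2 CPM was -0.51 in batch 1 and -0.60 in batch 2, a similar size in both. Its neighbour Gstp2 is near-identical in sequence and averaged 4.17 ± 1.42 CPM (SD, n = 3) in young mice, so the split of reads between the pair is uncertain. Gsta4, which conjugates 4-hydroxynonenal from oxidised lipids, was at 144, 156 and 285 CPM at 5 months and 93.9, 108 and 276 CPM at 22 months (log2 fold change -0.39, standard error 0.13, adjusted p = 0.113), with a difference of -0.57 in batch 1 and -0.05 in batch 2. Membrane-bound Mgst3 was at 20.0, 22.4 and 19.4 CPM at 5 months and 18.4, 18.7 and 15.2 CPM at 22 months (log2 fold change -0.24, standard error 0.09, adjusted p = 0.137). Its ages did not overlap, yet neither the fold nor the adjusted p passed the threshold. Gstk1 of mitochondria and peroxisomes had -0.30 (adjusted p = 0.163), Gstm1 -0.08 and membrane-bound Mgst1 0.03 on the log2 scale.

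Of the 5 genes around NRF2, 4 had a log2 fold change below 0, and Hmox1 lay above 0. Nfe2l2, whose RNA stands here for the regulator, and the classic target Nqo1 were among the 4. None of the 5 passed the threshold in edgeR. Nfe2l2 was at 99.7, 105 and 149 CPM at 5 months and 81.8, 94.2 and 108 CPM at 22 months (log2 fold change -0.30, standard error 0.09, adjusted p = 0.096). Nqo1, which encodes a quinone reductase, was at 83.1, 92.0 and 154 CPM at 5 months and 40.5, 54.9 and 139 CPM at 22 months (log2 fold change -0.63, standard error 0.19, adjusted p = 0.0947), with a difference of -0.89 in batch 1 and -0.15 in batch 2. Keap1 had a log2 fold change of -0.28 (adjusted p = 0.207 from edgeR), from -0.41 in batch 1 and -0.01 in batch 2. The inducible heme oxygenase Hmox1 had 0.08 with opposite signs in the batches, 0.31 in batch 1 and -0.36 in batch 2, and the constitutive Hmox2 had -0.07.

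Both metallothioneins had lower means at 22 months. Mt1 was at 324, 397 and 646 CPM at 5 months and 159, 287 and 429 CPM at 22 months (log2 fold change -0.66, standard error 0.22, adjusted p = 0.118). Mt2 was at 128, 169 and 451 CPM at 5 months and 58.0, 108 and 329 CPM at 22 months (log2 fold change -0.71, standard error 0.25, adjusted p = 0.127). In both, the 2 old mice of batch 1 lay below the 2 young ones and the old mouse of batch 2 below its counterpart, yet the difference between batches was larger than that between ages, and neither passed the threshold in edgeR. Old mouse 1 had the lowest value of both genes, with 108 CPM of Mt1 in its right eye and 211 CPM in its left.

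**Figure D3:**
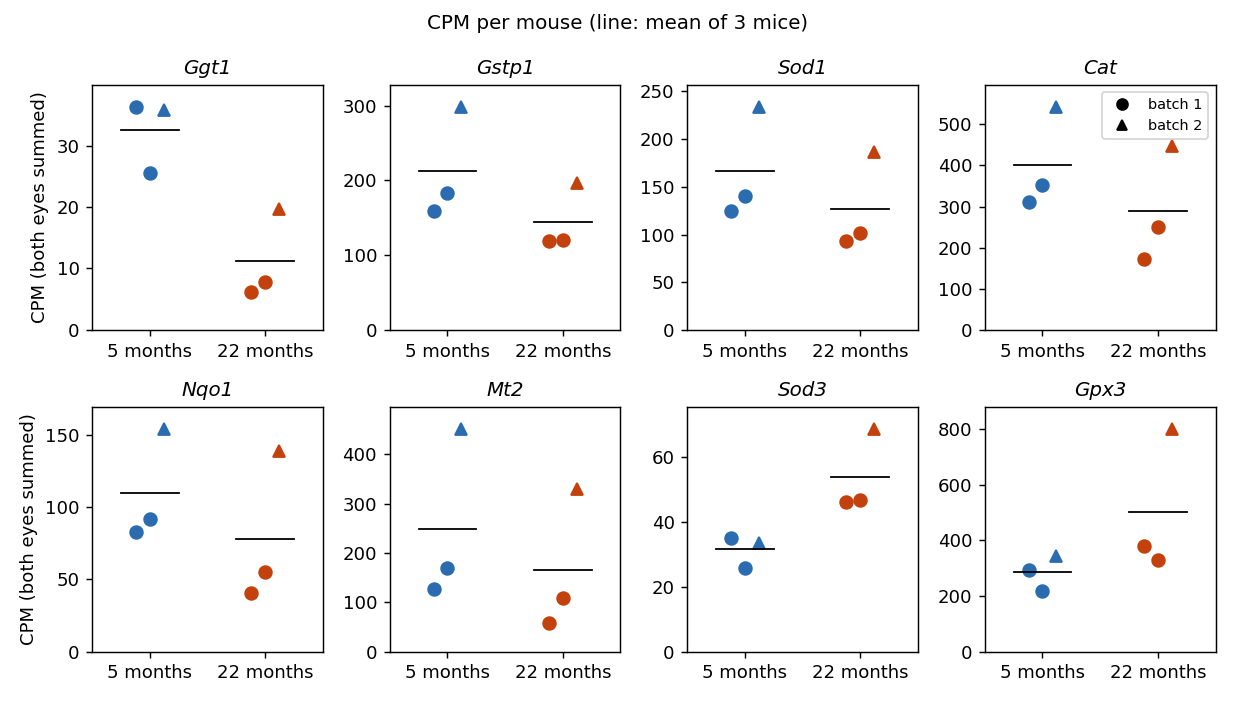
CPM per mouse with both eyes summed (y axis from 0) for 8 of the genes at 5 months (blue) and 22 months (orange); circles are batch 1, triangles batch 2, and lines the means of 3 mice. Ggt1 lies between 25.5 and 36.2 CPM in young mice and between 6.24 and 19.7 CPM in old ones, while for Gstp1, Sod1, Cat, Nqo1 and Mt2 the triangle of each age lies above its circles.

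At the median, these genes differed more between batches than between ages. Mouse 3 lay above the mean of mice 1 and 2 at both ages for 36 of 40 genes (90%), against 41.4% of all genes tested. The median difference in log2 CPM was 0.64 at 5 months and 0.63 at 22 months, against 0.01 and 0.02 over all genes. Mt2 had the largest, at 1.62 and 2.06. Within batch 1, both old mice lay below both young mice for 22 of 40 genes and above for 5 (Gpx3, Prdx4, Srxn1, Sod3 and Txn1), where 34.5% and 35.2% of all genes did. Within batch 2, which holds 1 mouse per age, 35 of 40 were lower in the old mouse, against 7637 of all 14219 genes tested. The median difference of the 40 was -0.22 in batch 1 and -0.16 in batch 2, against 0.002 and -0.02 over all genes. Without the batch term, edgeR called 0 of 40 genes, with 1 lower and 1 higher at an unadjusted p below 0.05, and 2 of all genes tested.

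**Figure D4:**
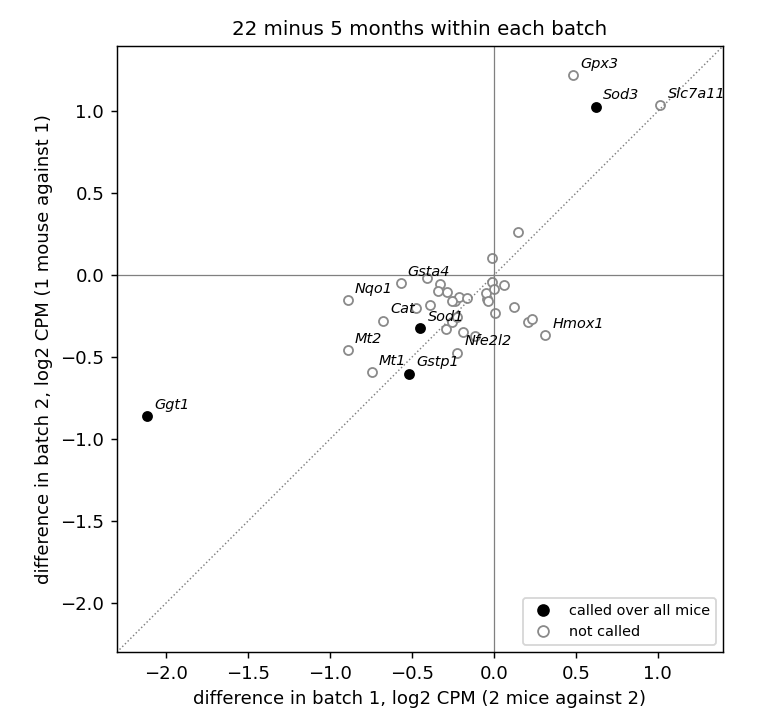
Difference in log2 CPM, 22 minus 5 months, in batch 1 (x axis, 2 mice against 2) and batch 2 (y axis, 1 against 1) for each of the 40 genes; filled points were called over all mice, and the dotted line marks equal differences. Most points fall in the lower left part, with Ggt1 at -2.11 and -0.86, and Sod3, Gpx3 and Slc7a11 in the upper right.

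Calls were lost in some other fits, and the folds varied in size. Same-numbered mice of the 2 ages deviated together, but so did differently numbered mice of batch 1 (r = 0.61 and 0.52). With batch means removed, r was 0.07 for the pairs numbered 1 and 2, and -0.44 and -0.49 for the differently numbered mice of batch 1. Same-numbered mice were thus still more alike than differently numbered ones. When the mouse number replaced batch as a block, 2 of 40 were called: Sod1 (adjusted p = 0.0483) and Gstp1 (0.0335), while Sod3 had 0.0502 and Ggt1 0.0578 in edgeR. Leaving out 1 mouse at a time ended the Ggt1 call in 4 cases, namely young mouse 1 (adjusted p = 0.0604), young mouse 2 (0.0923), old mouse 1 (0.149) and old mouse 2 (0.14). The Sod1 call ended without the same 4 mice (adjusted p = 0.0986, 0.138, 0.161 and 0.14). The Gstp1 call ended without young mouse 2 (0.0833), old mouse 1 (0.114) or old mouse 2 (0.112), and that of Sod3 without the same 3 (0.118, 0.14 and 0.13). Over the 6 fits that left out 1 mouse, the log2 fold change ran from -2.13 to -1.42 for Ggt1, from -0.61 to -0.49 for Gstp1, from -0.45 to -0.34 for Sod1 and from 0.61 to 0.92 for Sod3. The fits that lost calls compare 2 mice with 3 and called fewer of all genes, 73 lower and 334 higher without young mouse 1, 26 and 78 without young mouse 2, 0 and 4 without old mouse 1, and 0 and 1 without old mouse 2. Without mouse 3 of either age, where only batch 1 informs the comparison, all 4 calls held. The 4 genes kept their direction in all 23 alternatives run, which reuse the same mice and are not independent of each other. Batch 1 alone and the fits without mouse 3 of either age make nearly the same comparison. Over the 23 alternatives the log2 fold change ran from -2.18 to -1.22 for Ggt1 and from -0.61 to -0.45 for Gstp1. It ran from -0.54 to -0.26 for Sod1 and from 0.17 to 1.21 for Sod3.

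Markers of cell types moved with age as well. RPE marker genes were on the lower side, with 8 of 39 called lower, 0 higher and a median log2 fold change of -0.68, which is more than the -0.22 of the 40 antioxidant genes. Of 10 choroidal melanocyte markers 7 were called lower, and of 18 macrophage and mast cell markers 6 higher, where 2.26% of all genes were called lower and 5.41% higher. Rod genes were higher, with 34 of 44 called and a median of 1.51, and the mean log2 CPM of the list ran from 4.36 to 6.97 in the young and from 5.28 to 8.83 in the old libraries. With that rod value of each library as a covariate and each eye as a sample, the median of the 40 was -0.14, and Gstp1 (log2 fold change -0.45, adjusted p = 0.0265) and Sod2 (-0.29, 0.0476) were the 2 called in edgeR. Ggt1 had -1.22 (adjusted p = 0.116), Sod1 -0.26 (0.235), Cat -0.24 (0.583) and Prdx1 -0.05 (0.908) there. Treating eyes as samples makes these p-values too small, since 2 eyes share a mouse. Leaving out instead the 3 libraries of most extreme rod value, chosen after seeing the data, gave a median of -0.15 for the 40. That fit called 5 lower and 1 higher (226 and 439 over all genes), among them all 4 genes called before. Their log2 fold changes were -1.41 (Ggt1), -0.49 (Gstp1), -0.34 (Sod1) and 0.89 (Sod3).

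The eyes of a mouse share its age and batch. In 5 of 6 mice the eye with more rod transcripts had the lower mean log2 CPM of the 40 genes. The difference was -0.20, -0.02 and -0.02 in 5-month mice 1, 2 and 3, and -0.49, -0.15 and 0.09 in 22-month mice 1, 2 and 3. The RPE marker genes differed with the same sign in all 6 mice and by more, by -0.31, -0.22, -0.08, -0.79, -0.28 and 0.12 in that order, so rod and RPE transcripts cannot be told apart here. Old mouse 1 had the largest difference, and its mean log2 CPM of the rod genes was 7.23 in the left and 8.83 in the right eye. Gpx8, Gclc, Gclm and Prdx1 were lower in the rod-rich eye in 6 of 6 mice (10% of the 40, against 4.40% of all genes). A further 7 were in 5 mice (17.5%, against 15.5% of all genes, a similar share) and 18 in 4 (45%, against 21.1%). The eyes of old mouse 2 differed by 0.13 in the mean log2 CPM of the rod genes, against 1.23 to 2.21 in the other mice. For Gclc the median eye difference in log2 CPM was -0.06, against an age difference of -0.32, and for Gstp1 it was -0.07, against -0.55. For Gclm it was -0.29, against -0.23, and for Prdx1 -0.21, against -0.26, so there the eyes of a mouse differed by about as much as the ages. Levels were also correlated with the mean log2 CPM of the RPE genes over the 12 libraries, which differ in age and batch. There r was 0.96 for Gclc, 0.95 for Gclm, 0.88 for Prdx1 and 0.84 for Gstp1. With the rod covariate, Gclc had a log2 fold change of -0.195 (adjusted p = 0.176 in edgeR). The part of rod or RPE content in the age differences was not tested beyond these values.

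The 2 genes for secreted enzymes differed between the eyes of single mice, most in old mice 1 and 3. Sod3 in the left and right eyes of 5-month mice 1, 2 and 3 was 27.3, 44.5, 27.1, 24.6, 31.8 and 34.8 CPM. In the same order for the 22-month mice it was 61.0, 31.5, 51.0, 41.3, 92.0 and 45.3 CPM. Gpx3 was highest in the same 2 old eyes, the left eyes of mouse 3 (1153 CPM, against 449 in the right) and mouse 1 (547, against 215). Slc7a11 was also highest in the left eye of old mouse 1 (33.0 CPM).

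Genes of the iris and ciliary epithelium, the tissue in front of the retina whose pigmented layer continues the RPE, stood out in the same eyes. A list of 10 (Optc, Col9a1, Otx1, Zic1, Zic2, Zic4, Aqp1, Wfdc1, Msx1 and Mab21l1) was drawn up after these values were seen, and 9 were tested, of which 1, Mab21l1, was called higher and 0 lower, with a median log2 fold change of 0.71. Its mean log2 CPM was 5.41 in the left eye of old mouse 3 and 4.65 in the left eye of old mouse 1, against 3.26 to 3.60 in the other 4 old eyes. Among young eyes it was highest in the right eye of mouse 1, at 4.56, and lay between 1.03 and 3.68 in the other 5. That eye had the most Sod3 (44.5 CPM) and Slc7a11 (27.6 CPM) of the young eyes, but its Gpx3 (356 CPM) was below that of the right eye of mouse 3 (409 CPM), whose value for the list was 3.03. The summed CPM of the list was 319.6 to 389 in young and 386 to 635 in old libraries, and 2 of the 10 had 0 counts in at least 1 library. Without those 3 libraries Sod3 had a log2 fold change of 0.52 (adjusted p = 0.216) and Gpx3 0.29 (0.375) in edgeR, a fit that called 0 of the 40 (7 lower and 2 higher at an unadjusted p below 0.05) and, over all genes, 1 lower and 1 higher. Gstp1 had -0.51 and Ggt1 -1.88 there. Gpx3 had 1.31 (adjusted p = 0.0863) in left eyes alone and -0.04 (0.923) in right eyes alone. The 3 libraries left out include the 2 old eyes with the most Sod3 and Gpx3, values seen before the list was drawn up. Smaller folds without them therefore cannot show what part iris or ciliary RNA has in the Sod3 and Gpx3 differences. That part was not tested.

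**Figure D5:**
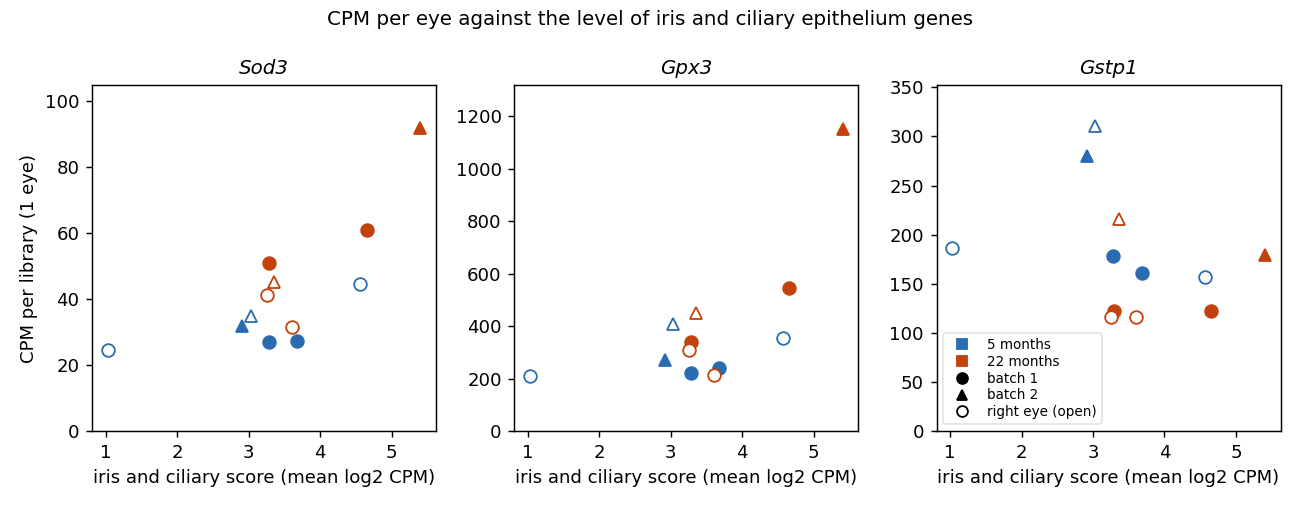
CPM per eye (y axis from 0) of Sod3, Gpx3 and Gstp1 against the mean log2 CPM of the iris and ciliary epithelium genes (x axis) in the 12 libraries; filled symbols are left eyes, open symbols right eyes, circles batch 1, triangles batch 2, blue 5 months and orange 22 months. The left eye of old mouse 3, at 5.41, holds the highest Sod3 (92.0 CPM) and Gpx3 (1153 CPM), but 179 CPM of Gstp1, less than its right eye.

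Other genes of the pathway were counted from lists. The NADPH supply list of 20 also holds the ferritin genes Fth1 and Ftl1, which store iron and do not supply NADPH, and both also stand in the NRF2 list. Of the 20, 2 were called lower and 0 higher (median log2 fold change -0.06). Over all genes tested 2.26% were called lower and 5.41% higher, for this list and the transferases below to be read against. Idh2, the mitochondrial NADP-dependent isocitrate dehydrogenase, was at 60.4, 61.1 and 76.3 CPM at 5 months and 49.5, 48.8 and 61.2 CPM at 22 months (log2 fold change -0.31, standard error 0.06, adjusted p = 0.0372). Nnt, the proton-driven transhydrogenase of mitochondria, was at 44.5, 46.4 and 52.1 CPM at 5 months and 32.1, 33.8 and 45.3 CPM at 22 months (log2 fold change -0.38, standard error 0.08, adjusted p = 0.0466), where C57BL/6J mice are known to carry a loss-of-function Nnt allele. Of 19 other glutathione transferase genes tested, 2 were called lower and 0 higher (median -0.22), the Gsta-like Gm3776 (4.74, 5.74 and 2.76 CPM at 5 months and 1.57, 1.23 and 1.78 CPM at 22 months; log2 fold change -1.48, standard error 0.31, adjusted p = 0.0485) and Gm10639 (2.70, 2.99 and 7.19 CPM at 5 months and 1.13, 1.41 and 4.43 CPM at 22 months; log2 fold change -0.98, standard error 0.19, adjusted p = 0.0444). Both are close copies of Gsta1 at low counts, so the split of reads among the 3 is uncertain.

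In the other 3 lists edgeR called 0 genes. Among 23 other peroxidases, thioredoxins, glutaredoxins and methionine sulfoxide reductases, 7 had an unadjusted p below 0.05 in edgeR, all lower, and DESeq2 called 2 lower. Over all genes the shares were 14.6% lower and 16.5% higher at that unadjusted p, and 6.07% lower and 10.6% higher by DESeq2, and the counts of the next lists are to be read against them. The smallest p-values were those of Selenop, the selenium carrier (1226, 1271 and 1741 CPM at 5 months and 823, 989 and 1279.6 CPM at 22 months; log2 fold change -0.46, standard error 0.11, adjusted p = 0.0597), and Glrx3, a glutaredoxin with iron-sulfur roles (log2 fold change -0.20, adjusted p = 0.0965). Among 29 other genes of glutathione synthesis, breakdown and transport, 7 were lower and 7 higher at that level, and DESeq2 called 4 lower and 3 higher, the last near the share over all genes. The smallest p-values were those of the taurine transporter Slc6a6 (1443, 1463 and 1091 CPM at 5 months and 1922, 1784 and 1531 CPM at 22 months; log2 fold change 0.40, standard error 0.10, adjusted p = 0.0666) and Slc3a2, the heavy chain that partners Slc7a11 (211, 237 and 316 CPM at 5 months and 166, 186 and 263 CPM at 22 months; log2 fold change -0.32, standard error 0.09, adjusted p = 0.0754). Among 31 other NRF2 regulators and targets, 7 were lower and 2 higher at that level, and DESeq2 called 3 lower and 1 higher. The lower counts were above the shares over all genes and the higher counts below them. The smallest p-values in edgeR belonged to the carbonyl reductase Cbr1 (log2 fold change -0.31, adjusted p = 0.0631) and the acyltransferase Lpcat4 (0.62, 0.082).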

How the data were processed

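RNA from RPE of single eyes was sequenced as 12 libraries on a NextSeq 550 (2 × 75 bp), from stranded total RNA depleted of ribosomal RNA with an Illumina Ribo-Zero Plus kit. Per the labels and the study's methods, reads were checked with FastQC, trimmed with Trimmomatic, aligned with HISAT2 to mm10 and counted per gene with featureCounts, which gave the deposited raw counts. The authors then adjusted counts for batch with ComBat-seq, deposited as estimated counts, and divided by DESeq2 size factors, deposited as a normalized count signal. For the versions of the trimmer, aligner and counter, the strand setting and multi-mapped reads the entry is: not given in the sources used here. Overlapping and near-identical genes (Gstp1 and Gstp2, Gsta1 and its copies, processed copies of Prdx1, Gpx4 and Txn1) are uncertain.

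Raw counts of the 2 eyes of a mouse were summed. Genes whose deposited normalized counts averaged 20 or more over the libraries entered the test. Ages were compared with edgeR 4.0.16 in R 4.3.3 (TMM, quasi-likelihood test, batch as a term, Benjamini-Hochberg adjustment over 14219 genes). Mouse totals were 20853656 to 26266140 counts. The p-values measure the spread between these 3 mice per age that remained after the batch term, not their full spread. Batch 2 holds 1 mouse per age, so mice of the same age and batch were compared only in batch 1. Gene identifiers matched a symbol for 25275 of 27179. Same-numbered mice of the 2 ages were correlated in their deviations from the age means (r = 0.77, 0.61 and 0.85). After batch means were removed, r was 0.07 for the pairs numbered 1 and 2. It was -0.44 and -0.49 for the differently numbered mice of batch 1. The number was therefore also fitted as a block. Alternatives were DESeq2 1.42.0, other scalings and filters, single eyes (edgeR and limma 3.58.1 voom), limma on log2 normalized values plus 4 or 1, DESeq2 on rounded batch-corrected counts, a rod covariate, and leaving out each mouse. Leaving out the 3 libraries of most extreme rod score, or the 3 of highest iris and ciliary score, was chosen after seeing the data. The test was also run on counts simulated from a fit to these data. Figures used matplotlib 3.10.9 in Python 3.11.15.

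The 40 genes and the pathway and marker lists were chosen with earlier results of these data known. All 40 could be named. Values were given in full for called genes, genes with an unadjusted p below 0.05 or with the ages apart, and the 3 of highest level per length. In each other list, up to 4 called genes, or the 2 of smallest p, were named.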

Additional observations from a re-analysis of the deposited data

Results flagged for a closer look

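Dixon's ratio was computed for each of the 40 genes within the 6 libraries of each age, 80 groups in all, of which chance marks about 1 in 20. A single library stood apart in 3 of them. Gsr, glutathione reductase, was lowest in the left eye of 5-month mouse 1, at 41.6 CPM, with a gap of 0.632 of the group's range. Hmox1, the inducible heme oxygenase, was lowest in the right eye of 22-month mouse 1, at 16.9 CPM (0.649), and Txnrd1, the cytosolic thioredoxin reductase, was lowest in the same library, at 67.0 CPM (0.658). That library also had the highest mean log2 CPM of the rod genes, 8.83, and the lowest of the RPE genes, 7.53.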

How the results depend on the processing

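The direction of the median (-0.22) held under all alternatives, from -0.25 in right eyes alone to -0.13 in left eyes alone, with -0.14 under the rod covariate. The number of genes called, 4 of 40, varied between fits along with the calls over all genes, 321 lower and 769 higher with edgeR on mouse sums. It was 11 with DESeq2 on mouse sums (863 and 1502 over all genes), 12 with eyes as samples in edgeR (1263 and 1695), 13 with voom on eyes (1183 and 1572) and 7 in batch 1 alone (1231 and 1721). It was 14 with DESeq2 on batch-corrected counts (1374 and 1949) and 14 with limma on the normalized values plus 4 (1450 and 1771) or plus 1 (1460 and 1763). Those last fits also took eyes as samples and the authors' batch correction, so input, batch handling and replicate changed together. It was 2 with the replicate block (183 and 644), 2 under the rod covariate (74 and 154), 2 in left eyes (67 and 111), 0 in right eyes (3 and 9), 0 without a batch term (0 and 2) and 0 without the 3 libraries of highest iris and ciliary score (1 and 1). Over the fits that left out 1 mouse it ran from 0 to 7. Gpx3 turned to -0.039 in right eyes. The cause was not tested.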
